A study of Mus musculus with 2 samples.

Results

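The genes described here are the immunoglobulin constant and variable segments counted in bulk RNA from a pair of mouse tumours. They are the rows with biotype IG_C_gene or IG_V_gene that had at least 3 counts summed over both libraries, grouped into heavy, kappa and lambda chains by the prefixes Igh, Igk and Igl. The rule gave 91 genes of the 231 rows with these biotypes, in a table of 54532 rows. They were 12 of 13 constant genes, 36 of 113 heavy variable segments, 40 of 100 kappa variable segments and 3 of 3 lambda variable segments. The constant row left out, Iglc4, had 0 counts, as did 110 of the 218 variable rows. A further 29 variable rows had 1 or 2 counts and held 41 counts together. Because the members were selected on their counts in these libraries, counts and medians over them are descriptions. A segment that passed only through its reads in 1 library had to differ between them.

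Both tumours grew from Hepa1-6, a mouse hepatoma cell line, in C57BL/6 mice, and the cells had been given a lentivirus with a GFP and puromycin cassette. In one population the virus carried IRF8 and in the other it was the vector control, and the populations were placed on opposite sides of the same animal. RNA of the whole tumour was extracted with Trizol and made into libraries with a NEBNext Ultra RNA kit, which as named does not mark strand. There is 1 library per group, so no difference below has a replicate check, and host and tumour reads are both of mouse and were not separated.

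The libraries held 20223649 counts (vector-labelled) and 17316607 counts (IRF8-labelled), and a floor of 3 counts corresponds to 0.150 and 0.171 CPM, a scale on which counts are divided by the effective library size. Irf8, the gene the construct carries, had 4178 and 2578 counts, or 209.5 and 146.8 CPM. It was lower in the IRF8-labelled library, with a log2 ratio of -0.51 (95% counting interval -0.58 to -0.44), against the label, so the libraries are named by their labels throughout. Every interval is a 95% counting interval and covers counting error only.

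An antibody is built from paired heavy chains and paired light chains, the light chains being of kappa or lambda type. In a developing B cell a variable segment is joined by DNA recombination to joining segments and, in heavy chains, to a diversity segment, and the transcript is spliced to a constant gene. After activation, class switching replaces the heavy constant gene Ighm by one for IgG, IgE or IgA, and plasma cells, the antibody-secreting end stage, carry very high levels of these transcripts. IRF8 is known as a transcription factor of myeloid and B cells. C57BL/6 mice carry Ighg2c, the gene of the IgG2c heavy chain.

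The lambda genes are shown first because the lambda chain differed most between the libraries and because some of its genes are close copies of one another. The lines give the last 300 coding bases of Iglc2 (chr16:19198539-19198838), Iglc3 (chr16:19065368-19065667), Iglv1 (chr16:19085017-19085316) and Iglv2 (chr16:19260401-19260700), from the GENCODE M21 transcripts. Positions are on GRCm38 (mm10), minus strand, and the sequences read 5′ to 3′. Capitals mark the bases that differ within each pair.
Iglc2: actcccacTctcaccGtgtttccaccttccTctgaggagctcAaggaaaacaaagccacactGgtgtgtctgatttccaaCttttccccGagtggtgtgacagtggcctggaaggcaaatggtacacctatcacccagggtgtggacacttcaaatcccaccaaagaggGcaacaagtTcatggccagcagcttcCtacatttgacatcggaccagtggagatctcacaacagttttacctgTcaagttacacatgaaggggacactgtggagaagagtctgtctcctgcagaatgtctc
Iglc3: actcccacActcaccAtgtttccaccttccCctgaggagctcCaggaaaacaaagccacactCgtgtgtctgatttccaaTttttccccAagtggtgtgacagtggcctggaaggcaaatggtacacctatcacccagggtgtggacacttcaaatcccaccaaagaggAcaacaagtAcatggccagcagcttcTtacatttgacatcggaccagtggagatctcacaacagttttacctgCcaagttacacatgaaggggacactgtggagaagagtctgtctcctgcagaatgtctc
Iglv1: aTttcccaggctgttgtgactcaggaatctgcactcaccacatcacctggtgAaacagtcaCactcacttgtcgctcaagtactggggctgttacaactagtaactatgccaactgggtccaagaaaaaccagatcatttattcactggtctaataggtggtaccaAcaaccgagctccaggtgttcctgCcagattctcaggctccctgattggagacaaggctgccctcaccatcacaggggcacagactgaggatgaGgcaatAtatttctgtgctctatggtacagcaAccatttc
Iglv2: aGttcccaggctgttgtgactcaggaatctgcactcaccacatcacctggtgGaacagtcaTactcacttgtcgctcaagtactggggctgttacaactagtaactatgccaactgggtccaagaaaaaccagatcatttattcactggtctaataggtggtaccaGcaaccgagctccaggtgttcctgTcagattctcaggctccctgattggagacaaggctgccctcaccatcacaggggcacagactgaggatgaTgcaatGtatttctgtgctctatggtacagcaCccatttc

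Iglc2 and Iglc3 differed at 11 of these 300 bases (96.3% identical), and Iglv1 and Iglv2 at 8 of 300 (97.3%). Iglc1 was 73.2% identical to Iglc2 over 314 aligned coding bases, and Iglv3 was 58.2% identical to Iglv1 over 342. Of the 50-base windows of Iglc2, 7.65% also occurred in another immunoglobulin gene, and of Iglc3, 10.7%. The values were 22.2% for Iglv1 and 21.1% for Iglv2. Iglc1 and Iglv3 had no such window.

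In every chain, immunoglobulin transcripts were more abundant in the IRF8-labelled library. The 91 members held 1920 vector-labelled and 7022 IRF8-labelled counts, which is 96.3 and 399.9 CPM, a 4.16-fold higher summed level (3.95 to 4.37). They made up 0.00949% and 0.0406% of all counts. Heavy chain genes summed to 1244 and 3898 counts, 3.56-fold higher (3.34 to 3.80). Kappa genes summed to 653 and 2603, 4.53-fold higher (4.15 to 4.94), and lambda genes to 23 and 521, 25.7-fold higher (17.0 to 41.0). In bulk RNA, more cells of a type and more RNA per cell cannot be told apart.

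A size rule called a gene higher or lower where it differed by 2-fold or more, with a prior count of 2 added, and its counting interval left out a ratio of 1. On this rule 48 of the 91 members were higher (52.7%) and 3 lower (3.30%). Over all 22231 genes with at least 3 summed counts the shares were 3.66% higher and 3.23% lower. The median log2 ratio was 1.65 over the members and 0.0087 over all those genes. The higher and lower members were 4 and 1 of 8 heavy constant genes, 16 and 0 of 36 heavy variable segments, and 22 and 2 of 40 kappa variable segments. Igkc, 2 of 3 lambda constant genes and 3 of 3 lambda variable segments were higher. A member seen in the IRF8-labelled library alone needed 5 counts to be called, and one seen in the vector-labelled library alone needed 6. The totals of 14 members were under the first and those of 24 under the second.

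Among the heavy constant genes, the IgG genes carried most of the difference. Ighg2c (ENSMUSG00000076612, chromosome 12, 113285325 to 113288932, minus strand) had 176 vector-labelled and 1494 IRF8-labelled counts. Its ratio was 9.64 (8.24 to 11.3), the largest of a heavy constant gene with reads in both libraries. Per kilobase of the deposited gene length its level was 6.65 and 64.2 CPM. On that scale it stood close to Ighg1, Ighg2b and Ighm in the former library and well above them in the latter.

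The other IgG genes split in direction. Ighg2b (113302965 to 113307933) had 263 and 790 counts, a ratio of 3.41 (2.96 to 3.94), and 4.92 and 16.8 CPM per kilobase. Ighg1 (113325240 to 113330523) had 272 and 698 counts, a ratio of 2.92 (2.53 to 3.37), and 5.26 and 15.3 CPM per kilobase. These intervals overlap one another and lie below that of Ighg2c. Ighg3 (113356224 to 113361232) had 22 and 3 counts, 6.45-fold lower (1.94 to 33.7), and was the only constant gene past the size rule in that direction.

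IgM and IgA genes differed by less than 2-fold. Ighm (113418558 to 113422730), the constant gene of unswitched B cells, had 196 and 303 counts, a ratio of 1.76 (1.46 to 2.11). Its level was 5.21 and 9.15 CPM per kilobase. Igha (113254830 to 113260236), whose product is the antibody of mucosal secretions, had 198 and 227 counts, a ratio of 1.30 (1.07 to 1.58), and 3.72 and 4.85 CPM per kilobase. Both intervals lay above 1 and below those of Ighg1, Ighg2b and Ighg2c.

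Ighd and Ighe also had few reads. Ighd (113406604 to 113416324), spliced from the same primary transcript as Ighm in naive B cells, had 14 counts in each library, with an interval of 0.502 to 2.57 for the ratio. Ighe (113269260 to 113273248) had 0 and 8 counts. Against 3 counts in the former it was at least 3.03-fold higher, and its interval began at 1.94.

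**Figure D1:**
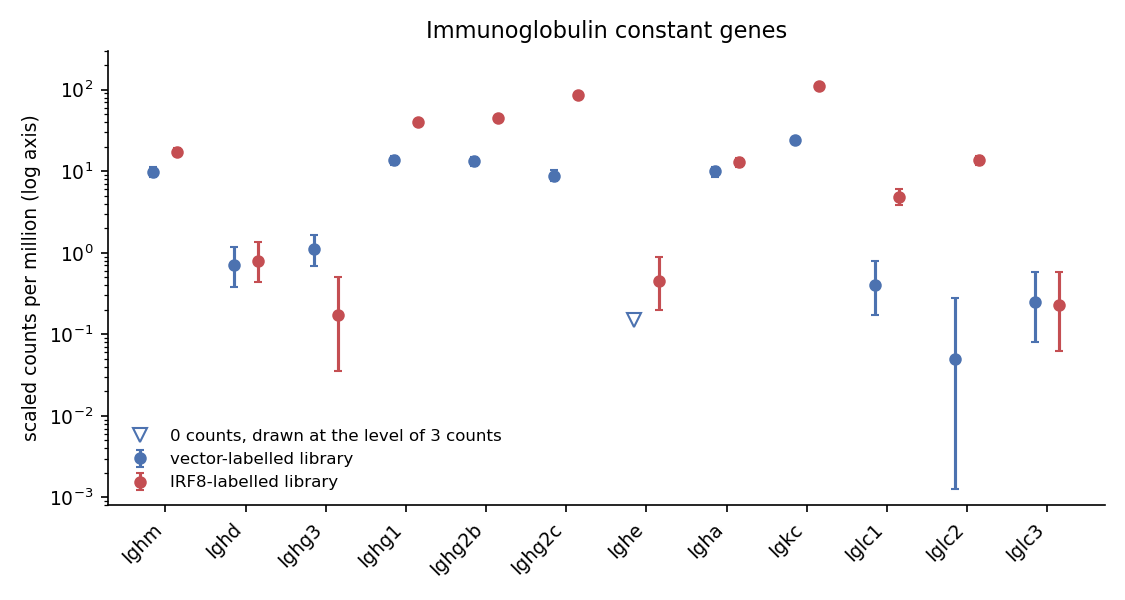
Level of each of the 12 immunoglobulin constant genes, in scaled CPM on a log axis, in the vector-labelled (blue) and IRF8-labelled (red) library, with exact 95% Poisson intervals. Ighg2c, Ighg2b, Ighg1, Ighm, Igkc, Iglc1 and Iglc2 are separated by more than their intervals, with the IRF8-labelled library above. The intervals of Igha, Ighd and Iglc3 overlap, and Ighg3 lies lower in the IRF8-labelled library. The open triangle is Ighe at 0 counts in the vector-labelled library, drawn without an interval at the level of 3 counts.

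The hinge exons are printed because they are the stretch in which the IgG genes differ most plainly in length. They lie at chr12:113329844-113329882 (Ighg1), chr12:113307261-113307326 (Ighg2b), chr12:113288263-113288325 (Ighg2c) and chr12:113360529-113360576 (Ighg3), all on the minus strand of GRCm38. The exons have 39, 66, 63 and 48 bases and are written 5′ to 3′, with no base marked.
Ighg1 hinge: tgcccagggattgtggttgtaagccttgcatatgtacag
Ighg2b hinge: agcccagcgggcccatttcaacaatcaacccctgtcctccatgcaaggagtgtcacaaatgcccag
Ighg2c hinge: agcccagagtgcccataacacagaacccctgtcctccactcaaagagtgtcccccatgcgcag
Ighg3 hinge: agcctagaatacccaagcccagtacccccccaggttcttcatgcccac

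Over the 291 bases of the first constant exon, Ighg1 and Ighg2b were 88.3% identical, Ighg1 and Ighg2c 88.0%, and Ighg2b and Ighg2c 87.6%. Ighg3 was 78.4% to 79.0% identical to the other 3. Across whole transcripts, at most 5.49% of the 50-base windows of a heavy constant gene, those of Ighg2c, occurred in another immunoglobulin gene. Ighm, Igha, Ighd and Ighe shared none.

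The make-up of the heavy constant counts differed between the libraries. IgG genes together had 733 of 1141 counts in the vector-labelled library, 64.2% (61.4 to 67.0, Clopper-Pearson), and 2985 of 3537 in the IRF8-labelled library, 84.4% (83.2 to 85.6). The Ighg2c share was 15.4% (13.4 to 17.7) and 42.2% (40.6 to 43.9). The Ighm share was 17.2% and 8.57%, and the Igha share 17.4% and 6.42%. The intervals of these shares did not overlap between the libraries.

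Ighg1 held 23.8% and 19.7% of heavy constant counts, and Ighg2b 23.0% and 22.3%. The Ighg2b intervals overlapped. Ighg3 held 1.93% and 0.0848%. Within the IgG counts alone, Ighg2c was 24.0% and 50.1%, Ighg1 37.1% and 23.4%, Ighg2b 35.9% and 26.5%, and Ighg3 3.00% and 0.101%. Ighg2c has the shortest deposited length of the IgG genes, and per kilobase it held 25.0% and 57.8% of the heavy constant level, so it led in both libraries on that scale.

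**Figure D2:**
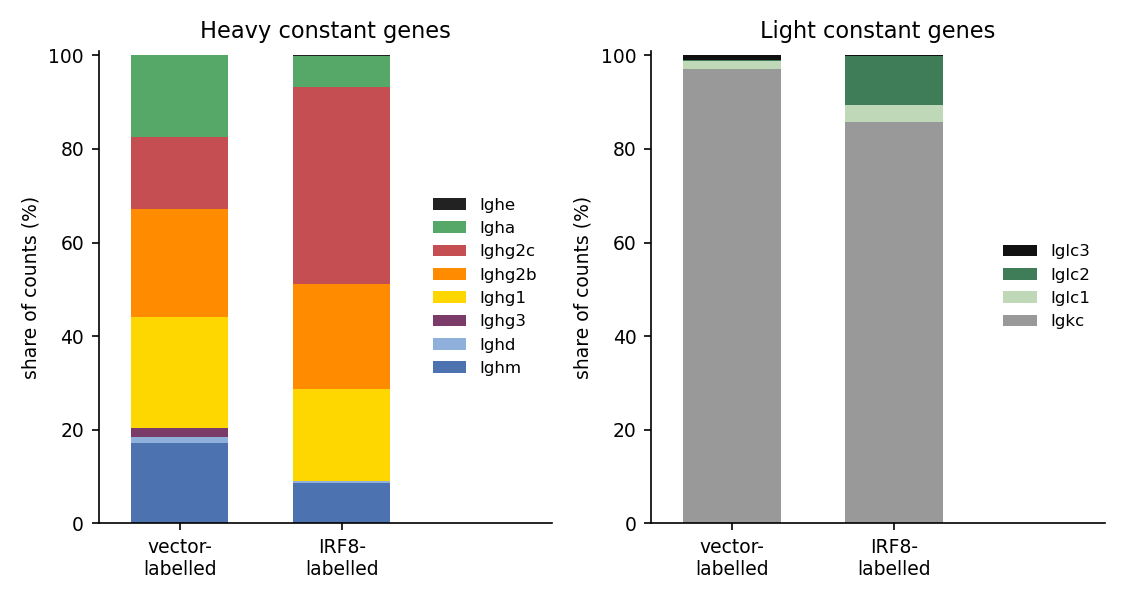
Share of the heavy constant counts (left) and of the light constant counts (right) held by each constant gene, in percent, for the vector-labelled and IRF8-labelled library. Ighg2c takes 15.4% of the heavy constant counts in the first and 42.2% in the second, and the lambda genes together take 2.86% and 14.3% of the light constant counts.

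Igkc (ENSMUSG00000076609, chromosome 6, 70726435 to 70726966, plus strand), the single kappa constant gene, was the most abundant member. It had 476 and 1965 counts, or 44.9 and 210.4 CPM per kilobase, the highest level per length in each library. Its ratio was 4.69 (4.24 to 5.19), against 3.52 (3.29 to 3.77) for the heavy constant genes summed. Heavy genes made up 70.0% of vector-labelled and 60.7% of IRF8-labelled constant counts. Per kilobase of deposited length they held 36.4% and 31.3% of the constant level, so light genes led on that scale.

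Lambda constant genes differed more, and unevenly. Iglc2 (ENSMUSG00000076937, chromosome 16, 19198396 to 19200351, minus strand) had 1 vector-labelled and 238 IRF8-labelled counts, a ratio of 270 (48.1 to 10724). Iglc1 (19061618 to 19062071) had 8 and 85 counts, a ratio of 12.1 (5.86 to 28.9). Iglc3 (19065230 to 19065681) had 5 and 4 counts, a ratio of 0.909 (0.180 to 4.22). Iglc2 was therefore the leading lambda constant gene of the IRF8-labelled library, with 72.8% of 327 counts, and had 1 of 14 in the other.

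The lambda share of light constant counts was 2.86% (1.57 to 4.75) with the vector label and 14.3% (12.9 to 15.8) with the IRF8 label. The lambda share of light variable counts was 4.84% (2.24 to 8.99) and 23.3% (20.5 to 26.3). Constant and variable genes thus gave intervals that did not overlap between the libraries on either measure.

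In the mouse, Iglv2 and Iglv3 usually join to the constant gene Iglc2, and Iglv1 to Iglc3 or Iglc1, which lie downstream of it. The summed counts followed these groups. Iglc3 alone did not, with 5 and 4 counts and a ratio of 0.909 (0.180 to 4.22), below the interval of Iglv1. Iglv2 and Iglv3 together had 0 and 118 counts beside the 1 and 238 of Iglc2. Iglv1 had 9 and 76 counts, 9.59-fold higher (4.80 to 21.8), beside 13 and 89 for Iglc1 and Iglc3 summed, 7.78-fold higher (4.32 to 15.2). Without Iglv2 the lambda variable sum was 12.2-fold higher. How the 97.3% identity of Iglv1 and Iglv2, or the 96.3% identity of Iglc2 and Iglc3, bears on the split of reads between them was not tested.

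By segment, Iglv2 (ENSMUSG00000076940, chromosome 16, 19260401 to 19260859, minus strand) had 0 and 97 counts. Against 3 counts it was at least 36.7-fold higher, with an interval beginning at 29.3, and it was the most abundant variable segment of the IRF8-labelled library. Iglv3, at 19241207 to 19241690, had 0 and 21 counts, at least 7.95-fold higher (interval from 5.92). Iglv1, at 19085017 to 19085500, was the lambda variable segment read in both libraries.

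Variable segments as a whole differed to a degree close to that of their constant genes. Heavy variable segments summed to 103 and 361 counts, 3.98-fold higher (3.19 to 5.01), and kappa variable segments to 177 and 638, 4.10-fold higher (3.46 to 4.86). Lambda variable segments summed to 9 and 194, 24.5-fold higher (12.6 to 54.4), and lambda constant genes to 14 and 327, 26.5-fold higher (15.6 to 49.1). In each chain the variable interval overlapped that of the constant genes. This overlap was lost for heavy and kappa chains among segments with little sequence in common with others, where the variable ratios were 1.45 and 2.54. Those sums rest on few segments. Of 99 and 221 such kappa counts, Igkv5-39 held 39 and 10 and Igkv12-89 held 36 and 40. Of 25 and 32 such heavy counts, Ighv3-6 held 14 and 5. Sums without these segments were not computed, so the ratios cannot be tied to shared sequence.

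The part of the counts that fell on variable segments was close between the libraries. It was 8.28% and 9.26% of heavy counts, 27.1% and 24.5% of kappa counts and 39.1% and 37.2% of lambda counts. Each pair overlapped within its counting intervals. Over all chains it was 15.1% (13.5 to 16.7) and 17.0% (16.1 to 17.9).

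The ends of the coding sequence of 6 variable segments are printed because the counts below turn on them. Ighv1-64, Igkv12-89 and Igkv19-93 carried many reads, Igkv1-99 had reads in the IRF8-labelled library only, and Igkv5-39 and Igkv14-111 were lower there. The lines give the last 120 coding bases, 5′ to 3′, of Ighv1-64 (chr12:115507545-115507664, minus strand), Igkv12-89 (chr6:68834846-68834965, minus), Igkv19-93 (chr6:68736297-68736416, minus), Igkv1-99 (chr6:68542303-68542422, plus), Igkv5-39 (chr6:69900424-69900543, minus) and Igkv14-111 (chr6:68256750-68256869, plus) on GRCm38. Capitals mark the codon of the conserved cysteine, after which the junction with the joining segment begins.
Ighv1-64: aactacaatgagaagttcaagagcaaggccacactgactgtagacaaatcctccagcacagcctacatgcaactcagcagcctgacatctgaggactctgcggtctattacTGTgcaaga
Igkv12-89: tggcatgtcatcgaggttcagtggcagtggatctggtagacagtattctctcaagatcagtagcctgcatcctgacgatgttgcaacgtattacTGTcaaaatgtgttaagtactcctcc
Igkv19-93: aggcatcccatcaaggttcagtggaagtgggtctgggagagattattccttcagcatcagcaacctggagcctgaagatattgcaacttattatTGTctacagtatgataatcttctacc
Igkv1-99: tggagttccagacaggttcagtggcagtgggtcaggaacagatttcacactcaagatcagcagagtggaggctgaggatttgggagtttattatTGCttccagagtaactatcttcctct
Igkv5-39: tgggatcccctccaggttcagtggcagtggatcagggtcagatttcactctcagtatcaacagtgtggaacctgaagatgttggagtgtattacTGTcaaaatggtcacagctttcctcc
Igkv14-111: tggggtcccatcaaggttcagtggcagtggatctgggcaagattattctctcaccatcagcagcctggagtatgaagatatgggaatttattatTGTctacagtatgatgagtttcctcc

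A cysteine codon in frame lay within 30 bases of the end in 36 of 36 heavy and 40 of 40 kappa segments, and in 2 of 3 lambda segments, the exception being Iglv3. It was followed by 1 to 12 bases in heavy and 18 to 25 in kappa segments. The codon was TGT in 35 and TGC in 1 of the heavy segments, and TGT in 29 and TGC in 11 of the kappa segments.

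Heavy variable reads were led by Ighv1-64 in both libraries. Ighv1-64 (ENSMUSG00000094088, chromosome 12, 115507545 to 115508031, minus strand, 2087 kb from Ighm) had 23 and 72 counts, a ratio of 3.56 (2.20 to 5.96). Its share of heavy variable counts was 22.3% (14.7 to 31.6) and 19.9% (15.9 to 24.4), which overlapped. Ighv9-3 (114140692 to 114141122) had 6 and 35 counts, a ratio of 6.63 (2.76 to 19.3).

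Of the next heavy segments by summed counts, 4 had no reads in the vector-labelled library. The last of them, Ighv1-20, tied at 19 counts with Ighv3-6, which had most of its reads there and is described with the remaining segments. Ighv1-75 had 26 counts in the IRF8-labelled library, at least 9.85-fold higher against 3 counts, and Ighv9-4 had 23, at least 8.71-fold higher. Ighv1-66 had 20 counts, at least 7.57-fold higher, and Ighv1-20 had 19, at least 7.20-fold higher. Their intervals began between 5.30 and 7.45. A further 10 heavy segments were higher, with 0 to 3 vector-labelled and 5 to 16 IRF8-labelled counts, 7 of them without a vector-labelled read.

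The remaining 20 heavy segments passed the size rule in neither direction. Their totals ran from 3 to 19 counts, and 8 of them had too few reads to be called higher and 10 too few to be called lower. The most abundant was Ighv3-6, with 14 and 5 counts and a ratio of 0.406 (0.114 to 1.19). It was the second heavy segment of the vector-labelled library.

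Kappa variable reads were led by different segments in each library. Igkv19-93 (ENSMUSG00000098814, chromosome 6, 68736297 to 68736780, minus strand) had 2 and 64 counts, 36.4-fold higher (9.66 to 306.7). It led the IRF8-labelled library with 10.0% of kappa variable counts (7.81 to 12.6). Igkv5-39 (ENSMUSG00000076569, 69900424 to 69900977, minus strand) had 39 and 10 counts, 3.43-fold lower (1.68 to 7.71). It led the vector-labelled library with 22.0% (16.2 to 28.9). Neither gene shared a 50-base window with another immunoglobulin gene.

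Igkv12-89 (68834846 to 68835307) was the kappa segment with the most reads in all, 36 and 40 counts, a ratio of 1.26 (0.784 to 2.04). It shared no 50-base window either, and its interval lay below that of Igkc. Igkv14-111 (68256389 to 68256869) had 15 and 1 counts, 13.2-fold lower (2.03 to 555.8). Igkv5-39 and Igkv14-111 were the only variable segments past the size rule in the lower direction, and both were named after their values were seen.

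The other abundant kappa segments were all higher in the IRF8-labelled library. Igkv3-2, 27.9 kb from Igkc, had 9 and 57 counts, 7.20-fold higher (3.54 to 16.5). Igkv17-127, 2865 kb from Igkc, had 5 and 45 counts, 10.2-fold higher (4.07 to 33.0). Igkv1-99 and Igkv9-120 had no vector-labelled and 54 and 50 IRF8-labelled counts, at least 20.4-fold and 18.9-fold higher. Segments near to and far from the constant gene were thus among them.

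With at least 20 counts in 1 library and 0 in the other, Igkv4-61 had 29 counts and Igkv3-10 had 21 in the IRF8-labelled library, at least 11.0-fold and 7.95-fold higher. No segment met this rule in the opposite direction. Only Igkv5-39, Igkv12-89 and Ighv1-64 had at least 20 vector-labelled counts, so few segments could have met it. Another 15 kappa segments were higher, with 0 to 8 vector-labelled and 5 to 41 IRF8-labelled counts. Apart from Igkv12-89, 15 kappa segments passed in neither direction, with totals from 3 to 27 counts, 6 of them too low to be called higher and 8 too low to be called lower.

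**Figure D3:**
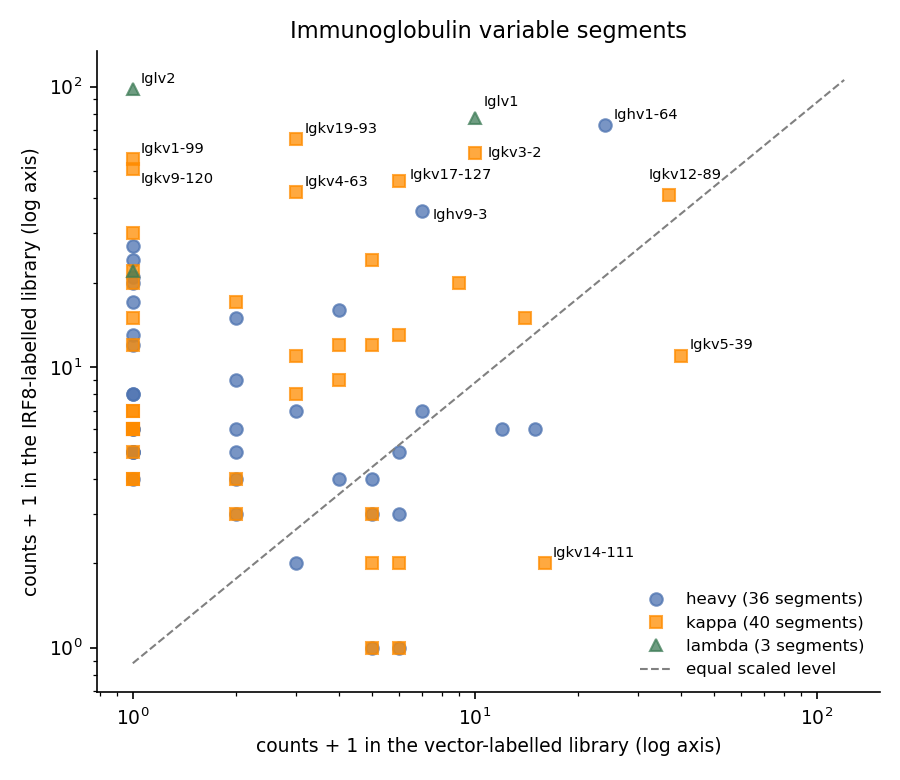
Counts plus 1 of the 79 variable segments in the vector-labelled (x axis) and IRF8-labelled (y axis) library, both on log axes, by chain; the dashed line marks an equal scaled level. Most segments lie above the line, 33 of them in the column at 0 counts in the vector-labelled library, while Igkv5-39 (39 and 10 counts) and Igkv14-111 (15 and 1) lie below it.

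Grouped by gene family, heavy variable counts had the same leader. Ighv1, the largest heavy family of the mouse, held 62.1% (52.0 to 71.5) and 65.4% (60.2 to 70.3) of heavy variable counts. Ighv9 held 5.83% and 16.1%, from 6 and 58 counts. Ighv3 held 13.6% and 3.32%, from 14 and 12 counts, and these intervals did not overlap.

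Kappa families differed more, and only some are given here. Igkv1 had 15 and 107 counts and held 8.47% and 16.8% of kappa variable counts, the largest family share in the IRF8-labelled library. Igkv4 had 4 and 95 counts, 27.0-fold higher (10.2 to 101.1), and held 2.26% and 14.9% of kappa variable counts. Igkv5 had 43 and 16 counts and held 24.3% and 2.51%. Igkv12 had 41 and 59 counts and held 23.2% and 9.25%. Most counts of the last 2 families in the vector-labelled library came from Igkv5-39 and Igkv12-89.

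More member segments were read in the IRF8-labelled library, also at equal counts. Heavy variable counts fell on 21 and 34 of the 36 heavy members, and kappa variable counts on 24 and 38 of the 40 kappa members. Thinned to the 103 heavy and 177 kappa counts of the vector-labelled library, the IRF8-labelled library would on average show 27.5 heavy and 31.9 kappa segments. Because a segment with few reads became a member more readily through the library with more reads, these numbers are descriptions. At equal counts the ratio of segments was 1.31 for heavy and 1.33 for kappa members, and 1.17 for both chains with all segments that had a read.

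At the full counts of each library, 103 and 361 heavy and 177 and 638 kappa, the IRF8-labelled reads were also spread more evenly. The top 5 heavy segments held 58.3% and 48.8% of heavy variable counts, and the inverse Simpson number, the number of equally used segments with the same evenness, was 9.89 and 13.3. For kappa the top 5 held 63.3% and 42.3%, and the number was 8.77 and 18.3. Neither measure was brought to equal counts or given an interval, and both depend on depth. Of the 79 variable members, 42 had reads in both libraries, against 21307 of all 22231 genes with at least 3 summed counts. These were 56% of the 75 segments with IRF8-labelled reads and 91.3% of the 46 with vector-labelled reads, shares that depend on the depth of each and on the selection by summed counts.

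The heavy and kappa variable members were spread over long stretches of their loci. Measured between gene midpoints, heavy members lay 158.1 to 2580 kb from Ighm, and kappa members 22.8 to 3117 kb from Igkc. All 36 heavy segments lay on the strand of Ighm. Of the kappa segments, 16 lay on the strand of Igkc and joined it by deletion, as is known for this locus, and 24 lay on the other strand and joined by inversion. The former summed to 57 and 316 counts, 6.30-fold higher (4.74 to 8.50), and the latter to 120 and 322, 3.05-fold higher (2.46 to 3.79). The second group holds Igkv5-39 (39 and 10 counts) and Igkv12-89 (36 and 40), from which most of its vector-labelled counts came. The groups were not compared without these segments, so the values do not show a difference by strand in general.

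**Figure D4:**
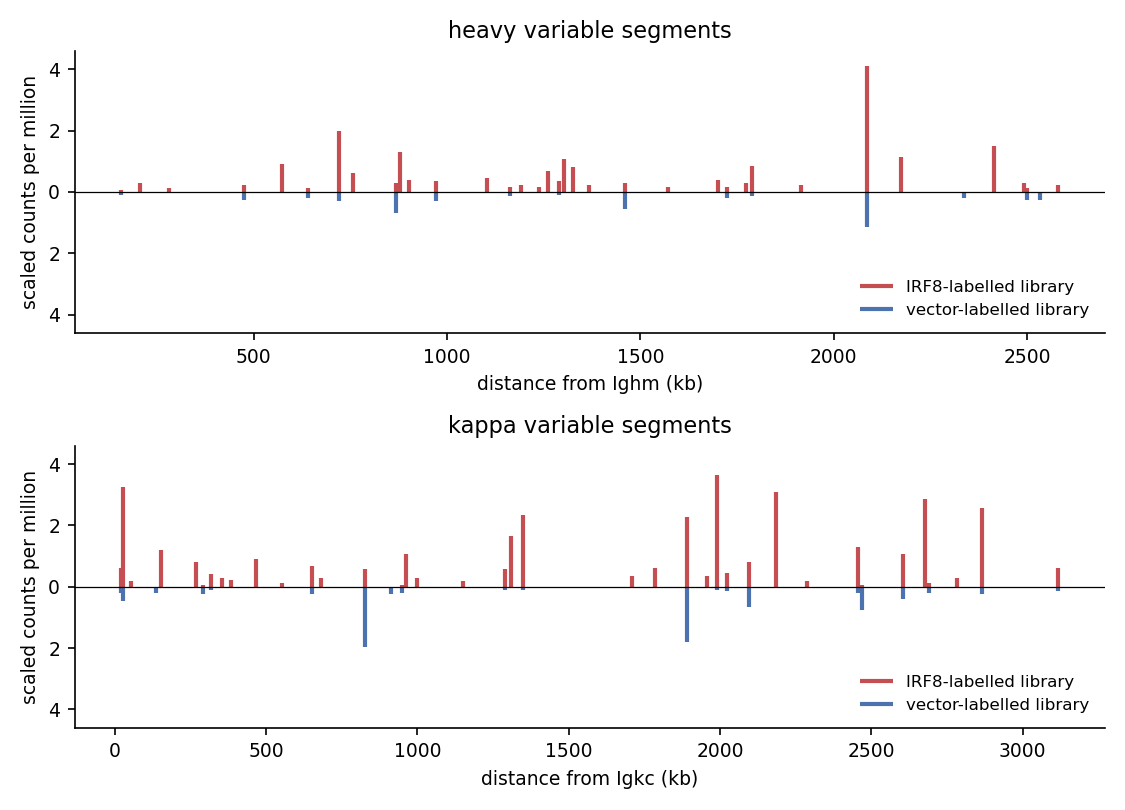
Scaled CPM of the heavy (top) and kappa (bottom) variable segments by distance in kb from Ighm and Igkc, with the IRF8-labelled library drawn upward in red and the vector-labelled library downward in blue. The members extend from 158.1 to 2580 kb from Ighm and from 22.8 to 3117 kb from Igkc. The tallest downward bars are Igkv5-39 at 826 kb and Igkv12-89 at 1892 kb from Igkc.

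Many variable segments resemble one another, and the treatment of multi-mapped reads is not stated in the labels or notes used here. The median share of 50-base windows found in another immunoglobulin gene was 20.9% for heavy and 27.8% for kappa segments. Among the 12 kappa segments under 10%, 6 were higher and 2 lower, and their sum was 2.54-fold higher (1.99 to 3.25). Among the 8 such heavy segments 1 was higher, with 25 and 32 counts in all and a ratio of 1.45 (0.835 to 2.56). Neither interval overlapped that of the constant genes of its chain under the same limit, 3.29 to 3.77 for heavy and 4.24 to 5.19 for kappa. This limit was set after the data had been seen. Under it, most vector-labelled kappa counts came from Igkv5-39 (39 and 10 counts) and Igkv12-89 (36 and 40). Most vector-labelled heavy counts came from Ighv3-6 (14 and 5). Sums without these segments were not computed.

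Rows of other immunoglobulin kinds held few reads. Joining segments had 1 and 9 counts over 14 rows, 10.2-fold higher (1.42 to 448). Variable pseudogenes had 1 count in 155 rows, and the 19 rows of diversity segments had 0.

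T cell receptor genes, which are rearranged by the same recombination in T cells, summed to ratios near 1. The 8 constant genes with at least 3 counts summed to 840 and 719 counts, a ratio of 0.972 (0.879 to 1.08), and the 29 variable segments to 386 and 311, a ratio of 0.915 (0.786 to 1.07). At least as many of the variable reads lay on a single segment, Trdv4 (193 and 191 counts), as on all others together. Segments of the beta chain summed to 132 and 75 counts, a ratio of 0.646 (0.480 to 0.863), and 21 of the 29 variable segments had a ratio below 1 at any size. On the size rule 1 constant gene was higher and 1 variable segment lower. The intervals of both sums lay below those of the constant and variable sums of the heavy, kappa and lambda chains.

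Among 15 genes of plasma cells, 2 were higher and none lower, with a median log2 ratio of 0.06. Jchain, which links IgA and IgM into multimers, had 93 and 318 counts, 3.88-fold higher (3.07 to 4.95). Mzb1, an endoplasmic reticulum protein of antibody-secreting cells, had 8 and 24 counts, 3.41-fold higher (1.48 to 8.78). Their intervals overlapped those of the heavy and kappa sums.

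The most abundant genes of that list are also used by other cells and differed by less than 2-fold. Xbp1, a regulator of the secretory pathway, had 5096 and 4661 counts (ratio 1.04), and Sdc1, which encodes CD138, had 2534 and 2123 (0.952). Prdm1, the regulator Blimp-1, had 1207 and 1172 (1.10), and Txndc5, a disulfide isomerase, had 8623 and 9726 (1.28). Creld2 (ratio 0.725), Cd38 (0.779), Fkbp11 (0.797) and Slamf7 (0.644), named after their values were seen, had intervals below 1. Tnfrsf17, the plasma cell receptor BCMA, had 1 and 0 counts.

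Of 18 B cell surface and signalling genes, 4 were higher and 1 lower, and the median log2 ratio was 0.29. The higher ones were Cd79a, the kinase gene Blk, the complement receptor gene Cr2 and H2-Ob, and the lower one Tnfrsf13c, the BAFF receptor gene with 12 and 1 counts. Cd79a, a signalling chain of the B cell receptor, had 12 and 27 counts, 2.56-fold higher (1.25 to 5.54), and its partner Cd79b had 16 and 17. Ms4a1, which encodes CD20, had 1 and 6 counts. These B cell markers were present at few reads in both libraries. The most abundant genes of the list were Cd37 (878 and 792 counts), Cd72 (259 and 349), Cd22 (182 and 148) and Btk (202 and 128), and none passed the rule. Cd72 had a ratio of 1.53 (1.30 to 1.80) and Btk one of 0.720 (0.572 to 0.903), while the intervals of Cd37 and Cd22 held 1. At any size, 14 of the 18 genes had a ratio above 1.

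None of 9 B cell transcription factor genes passed the rule, and their median was 0.03. The most abundant were Tcf3 (ratio 1.02), Pax5 (1.20), Ebf1 (1.11) and Ikzf3 (0.833). None of 10 germinal centre and class switching genes passed it either, with a median of -0.18. Bcl6, a transcription factor of germinal centre B cells, had 689 and 758 counts.

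Rag1, Rag2, Vpreb2 and Igll1, genes of V(D)J recombination and the pre-B cell receptor, had 0 counts in both libraries. Dntt had 0 and 1 counts and Vpreb1 2 and 1. Of 11 genes of antibody transport and Fc receptors, 2 were lower and none higher, with a median of -0.05. Those were Pigr, the transporter of IgA and IgM across epithelia, with 53 and 20 counts, and the IgE receptor chain Fcer1a with 34 and 2. None of 10 genes of B cell survival and attraction passed the rule.

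Markers of other tissues differed as well, and their part in the immunoglobulin differences was not tested. Skeletal muscle genes were higher in 14 of 14 (summed level 13.7 and 385.5 CPM), and adipocyte genes in 6 of 8 (339.8 and 279.0 CPM, most of it Lpl). Of 10 genes of lymph node and lymphoid stroma, 3 were higher and 1 lower, with a summed level of 1206.8 and 1245.8 CPM, most of it Enpp2 (1076.9 and 1110.0 CPM). The higher ones were Madcam1, Cr2 and Ccr7, a homing receptor gene with 196 and 573 counts (3.32-fold higher, 2.82 to 3.93). The lower one was Ltb, the lymphotoxin beta gene, with 1836 and 743 counts (2.18-fold lower, 2.00 to 2.37). Among the defining markers, Ccl19 and Glycam1 were at 0, Ccl21a had 0 and 4 counts, Cxcl13 had 8 and 7, and Madcam1 had 343 and 827. Hepatocyte genes were lower in 9 and higher in 2 of 15. None of 17 T cell genes (198.9 and 160.7 CPM) and none of 5 red cell genes (15.2 and 12.8 CPM) passed the rule.

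**Figure D5:**
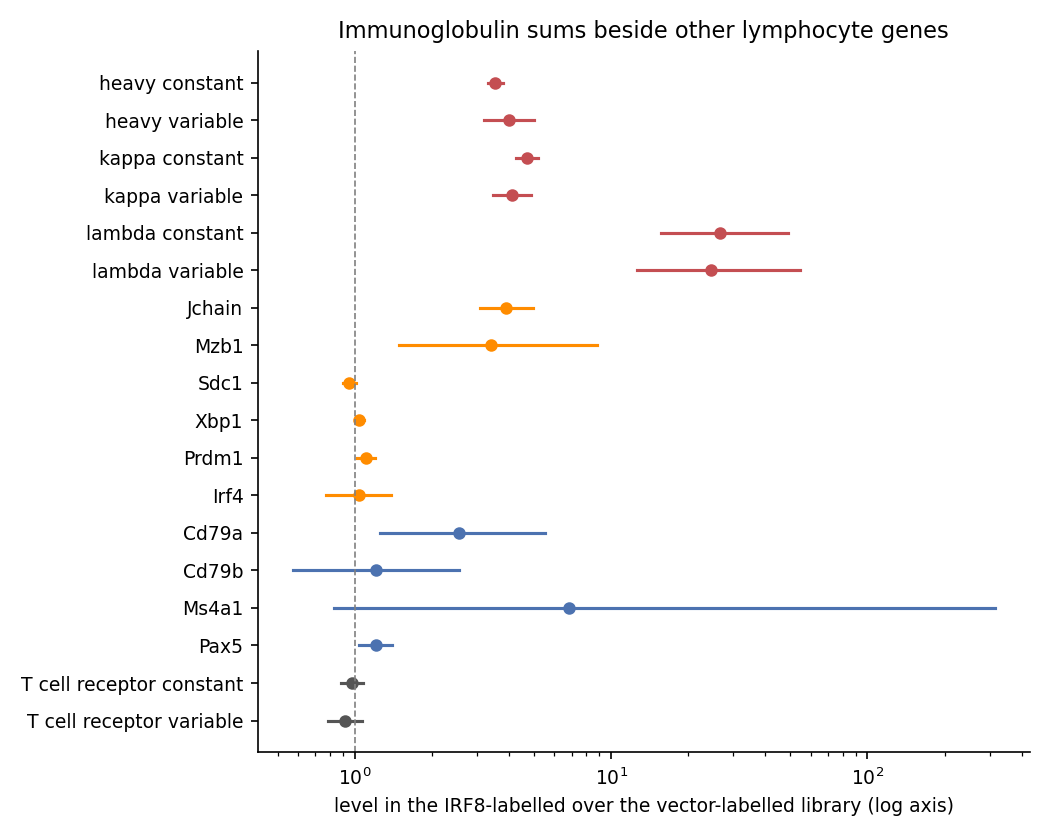
Ratio of the IRF8-labelled to the vector-labelled library on a log axis, with 95% counting intervals, for the summed immunoglobulin classes (red), plasma cell genes (orange), B cell genes (blue) and summed T cell receptor genes (grey). The immunoglobulin sums lie between 3.52 and 26.5, Jchain at 3.88 and Mzb1 at 3.41 lie beside the heavy and kappa sums, and Sdc1, Xbp1 and both T cell receptor sums lie near 1 (dashed).

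The values of members at the edge of the selection rule were small. Just inside it, with 3 summed counts, were 6 segments: Ighv1-47, Igkv3-4 and Igkv4-57 had 0 and 3 counts, Ighv5-12 and Igkv8-27 had 1 and 2, and Ighv5-2 had 2 and 1. Just outside it, 12 variable rows had 2 counts in all and 17 had 1. Over all 231 rows, with no selection, the summed level was 4.14-fold higher (3.93 to 4.35).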

How the data were processed

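The deposited table gives the authors' counts, whole-number reads per gene without normalization, for both libraries. HISAT2 2.0.5, featureCounts 1.5.0-p3 and, as the build, mm10 are listed in the submitters' processing notes. The treatment of multi-mapped reads is not stated in the sources used here. The members and gene lists were chosen with earlier results of these data known.

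Libraries were scaled with TMM factors (edgeR 4.0.16, R 4.3.3), and the log2 ratio used a prior count of 2. Folds and summed levels came from scaled counts without the prior. For each interval, the 95% Clopper-Pearson limits of the IRF8-labelled part of the counts were turned into a ratio (scipy 1.17.1). Intervals cover counting error only, since PCR copies were not marked. With 1 library per group no test was run. Against 0 counts, a fold was taken against 3 counts in that library. The size rule and the ratio intervals were tested on simulated Poisson counts scaled by library totals. Changes were set there only in genes with at least 20 summed counts, and the other steps were not simulated.

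The genes named were the constant genes, the 6 most abundant variable segments of each chain, segments with at least 20 counts in 1 library and 0 in the other, up to 4 of the most abundant genes per list, and Irf8. Cell type markers fixed with the lists are also named, as are some other list genes and segments chosen after their values were seen. Coordinates of all 91 members matched GENCODE M21, whose transcripts gave the sequences. Identity was computed with Biopython 1.88. A search for promoter octamers and recombination signals was not run. Alternatives were DESeq2 1.42.0 size factors, total counts, other count filters, priors and folds, counts per kilobase, and leaving out the most abundant member. Some items are not reported here.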

Additional observations from a re-analysis of the deposited data

How the results depend on the processing

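Of 87 alternatives over 25 results, 67 stayed within the counting interval or within 1.5 times a count, 20 moved and 0 reversed. The limit of 1.5 times is wide for the ratios of segment numbers, 1.31 for heavy and 1.33 for kappa, which were 1.17 without the filter and counted as unchanged. Their alternative at equal counts over all variable segments gave 1.30 for all chains together and so tested neither chain alone. No paired analysis was possible because each group has 1 library and no test was made. With at least 20 summed counts 24 of 31 members were higher, and among the 32 members with under 10% shared windows 15 were. By fold alone 9 members were lower. Without the most abundant member, log2 ratios were 1.27 for heavy constant genes, 2.96 for lambda constant and 3.61 for lambda variable genes. They were 1.35 for all heavy, 2.03 for all kappa and 3.87 for all lambda genes. Under 10% shared windows, a limit chosen after seeing the data, they were 0.54 for heavy variable, 1.34 for kappa variable and 5.44 for all lambda genes. The median log2 ratio was 2.63 with a prior count of 0.5 and 2.90 with at least 20 summed counts. Per kilobase, Ighg2c held 25.0% and 57.8% of the heavy constant level in the vector-labelled and IRF8-labelled library. Ighm held 19.6% in the vector-labelled library, Igha 14.0% and 4.36%, and IgG genes 86.8% in the IRF8-labelled library. Leaving out the most abundant member could not be done for the kappa constant class, which has 1 gene. The 3 scaling alternatives changed none of the calls' totals by over 1.5 times and no class ratio beyond its interval. The causes of these changes were not tested beyond the genes each alternative removes. Depth limits variable segments most: 14 members had too few counts to be called higher and 24 too few to be called lower.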
